A study of Mus musculus with 8 samples.

Results

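Transcripts of peripheral glia, the cells that ensheathe nerve fibres and accompany neurons outside the brain and spinal cord, were described through 6 genes in sorted cells of 3 mouse organs, labelled non-vascular smooth muscle. The genes were taken by symbol from the table of 21649 genes: Sox10, Foxd3, Erbb3, Gfap, Cdh19 and S100b, and all 6 were present. The table holds 3 bladder, 3 intestine and 2 lung libraries. Every mouse, per the labels, carried Cspg4-Dre, Acta2-CreERT and R26-GFP, and all received tamoxifen by intraperitoneal injection on 3 days, dosed at 0.75 mg for each 10 g of weight and dissolved in corn oil at 20 mg/mL. Cre was thus placed under Acta2, a gene of smooth muscle and other contractile cells, and Dre under Cspg4, a gene of pericytes and other NG2-positive cells. No library is unlabelled or untreated, so the organ is the only labelled difference. Age, any pooling of animals, and the sorting gate were not stated in the labels.

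Enteric glia and Schwann cells both descend from the neural crest. SOX10 is the transcription factor that specifies and maintains them, and FOXD3 acts in crest progenitors. ERBB3 is the receptor through which glial precursors answer neuregulin. GFAP is an intermediate filament protein, CDH19 a cadherin of Schwann cell precursors and S100B a small calcium-binding protein. The wall of the intestine holds the ganglia of the enteric nervous system, where glia surround the neurons, whereas nerves of bladder and lung carry Schwann cells and scattered ganglia. ERBB3 is also made by many epithelia, and S100B by fat and cartilage cells.

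Values are normalized read counts as deposited, given per library in the order 1, 2, 3. The libraries held 9.72 to 13.62 M reconstructed reads. In value 1 read equals 0.822 to 1.27, so a value of 0 means that 0 reads were seen. A floor of 3 reads, taken as a bound on the expected count where 0 were seen, equals 2.47 to 3.8 in value depending on the library. Tests are limma fits of log2(value + 1) over all 8 libraries and 18097 genes, with Benjamini-Hochberg adjustment over those genes and a threshold of 0.05. Nothing in the labels says that libraries came from separate animals, so p-values measure library-to-library spread only, possibly technical. The 3 comparisons between organs share libraries and are not independent. Smooth muscle genes were read in every library, all 11 on the list being above 0 throughout, with the myosin gene Myh11 at 4423 to 12454. Fibroblast genes were read as well, with Pdgfra at 1203 to 11091. In bulk RNA, fewer cells of a type and less RNA per cell cannot be told apart.

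Promoter windows are shown for the 3 members matched by symbol in the RefSeq table (build GRCm38.p6), the only ones of the 6 with a sequence there. Each run covers 250 bases before and 50 after the annotated start, 5′ to 3′ on the gene's strand, and capitals mark CG pairs. Foxd3 is at chr4:99656049-99656348 on the plus strand, S100b at chr10:76253586-76253885 on the plus strand and Gfap at chr11:102897151-102897450 on the minus strand.
Foxd3: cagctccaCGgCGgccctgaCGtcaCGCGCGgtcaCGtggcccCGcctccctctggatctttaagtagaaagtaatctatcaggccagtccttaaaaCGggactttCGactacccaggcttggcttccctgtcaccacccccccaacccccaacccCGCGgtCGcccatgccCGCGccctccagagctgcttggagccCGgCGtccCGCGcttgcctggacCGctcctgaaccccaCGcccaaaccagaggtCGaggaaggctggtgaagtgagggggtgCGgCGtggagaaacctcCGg
S100b: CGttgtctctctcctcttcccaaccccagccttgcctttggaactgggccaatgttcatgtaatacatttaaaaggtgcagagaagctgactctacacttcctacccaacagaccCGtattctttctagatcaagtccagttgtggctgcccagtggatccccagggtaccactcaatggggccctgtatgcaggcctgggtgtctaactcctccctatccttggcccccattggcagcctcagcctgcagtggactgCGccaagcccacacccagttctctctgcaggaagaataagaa
Gfap: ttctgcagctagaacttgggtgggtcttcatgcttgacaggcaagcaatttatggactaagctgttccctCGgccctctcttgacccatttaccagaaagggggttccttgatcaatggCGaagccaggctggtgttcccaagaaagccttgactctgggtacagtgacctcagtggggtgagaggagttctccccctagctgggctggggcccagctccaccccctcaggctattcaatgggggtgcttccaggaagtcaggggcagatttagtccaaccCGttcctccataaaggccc
The Foxd3 window held 25 CG pairs, more than 81.6% of 32851 promoter windows. The S100b and Gfap windows held 3 each, more than 23.3% of windows. On either strand, the SOX core letters ACAAT (in 31.0% of all windows) and ACAAAG (in 18.7%) occurred in none of these 3 windows. The Foxd3 window held TGACGTCA, the cAMP response element, and CACGTG, an E-box, each 1 time and without overlap. Those letters were searched after the sequence had been seen, and occur in 1.8% and 7.2% of all windows. A match is a description of the letters and not a bound site.

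Intestine exceeded bladder for all 6 genes, by 7.42-fold for S100b to 21.7-fold for Foxd3 as ratios of mean values, and 0 were lower. The Foxd3 ratio rests on 6 bladder reads. Across all tested genes 28.7% were higher in intestine by the same test. In lung, 4 of the 6 (Sox10, Erbb3, Gfap and Cdh19) were lower than in bladder and 5 were lower than in intestine, with Sox10 at 0 in both libraries. S100b was the member higher in lung than in bladder. Gfap was not called with quantile normalization or with the deposited scaling undone, which left 3 lower in lung than in bladder. Undoing that scaling leaves depth uncorrected. The background was 21.8% lower and 19.2% higher for lung against bladder, and 23.6% lower for lung against intestine. By the F test over the 3 tissues all 6 differed, as did 62.9% of tested genes. All 6 passed the filter on low values. Foxd3 passed through the intestine libraries only, and Cdh19 reached 10 in 1 bladder library besides, so these counts are given as a description.

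**Figure D1:**
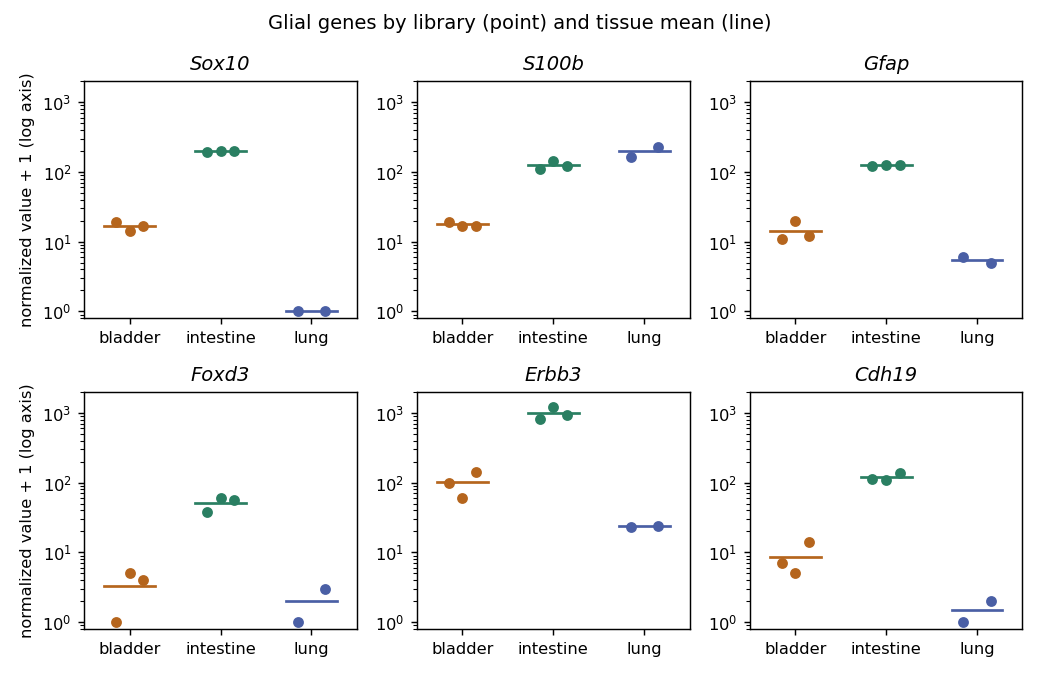
Normalized value plus 1 (log axis) of each gene in each library, with points for the 3 bladder, 3 intestine and 2 lung libraries and a line at the tissue mean. For all genes but S100b the intestine libraries lie above every other library, and S100b is highest in the 2 lung libraries.

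Sox10 (ENSMUSG00000033006, mm39 chromosome 15, 79039108 to 79049440, minus strand) was at 18, 13 and 16 in bladder, 190, 200 and 196 in intestine, and 0 and 0 in lung. The intestine libraries were far above the others and the 3 tissues did not overlap. Mean values were 15.7 ± 2.52 (SD, n = 3) in bladder and 195 ± 5.03 (n = 3) in intestine, a 12.5-fold difference. The log2 difference was 3.57 (SE 0.33, limma adjusted p = 1.87e-05). Against the floor of 3 reads per lung library, Sox10 was at least 77.2-fold lower in lung than in intestine and at least 6.19-fold lower than in bladder (limma adjusted p = 7.13e-07 and 3.02e-05). The bladder value rests on 39 reads summed over its libraries, against 642 in intestine. The noncoding gene Gm10863, which begins 799 nt upstream on the other strand, was at 0 to 3 in bladder, 6 to 11 in intestine and 0 to 2 in lung, below the filter and not tested.

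Foxd3 (ENSMUSG00000067261, chromosome 4, 99544536 to 99546859, plus strand) was the lowest member in bladder and intestine, at 0, 4 and 3 in bladder, 37, 59 and 56 in intestine, and 0 and 2 in lung. Intestine stood clear of both other tissues, and bladder and lung overlapped. The log2 difference between intestine and bladder was 4.22 (SE 0.69, limma adjusted p = 0.000704). It was 3.50 without bladder library 1 and 4.66 without bladder library 2. The bladder value rested on 6 reads, and the ratio of reads was 21.1 (exact 95% interval 9.47 to 58.2, Clopper-Pearson, counting error only). Lung held only 2 reads in all, against 166 in intestine. The intestine to lung ratio of reads was 60.0, with an exact 95% interval of 16.3 to 499. The log2 difference for lung minus intestine was -4.87, or -4.08 without lung library 1 and -5.66 without lung library 2. Between lung and bladder no difference passed the test, at -0.65 (SE 0.77, adjusted p = 0.548), and 2 against 6 reads leave a bladder to lung ratio of anywhere from 0.509 to 28.9. The noncoding gene Gm12688 ends its span 647 nt from the Foxd3 start, on the opposite strand (chromosome 4, 99541834 to 99543888). It was at 0, 3 and 0 in bladder, 20, 11 and 22 in intestine, and 0 and 0 in lung, with a log2 difference of 3.50 (SE 0.62, limma adjusted p = 0.00114) between intestine and bladder. Like Foxd3, it passed the filter through the intestine libraries only. Their spans do not overlap, so reads within them are not shared.

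Erbb3 (ENSMUSG00000018166, chromosome 10, 128403392 to 128425521, minus strand) had the highest value of the 6 in bladder and intestine. It was at 99, 59 and 141 in bladder, 819, 1222 and 916 in intestine, and 22 and 23 in lung. The 3 tissues did not overlap. Means were 99.7 ± 41.0 (n = 3), 986 ± 210 (n = 3) and 22.5 ± 0.707 (n = 2). The log2 difference was 3.36 (SE 0.31, limma adjusted p = 1.87e-05) for intestine minus bladder, -2.01 (SE 0.34, adjusted p = 0.00137) for lung minus bladder, and -5.37 (SE 0.34, adjusted p = 2.99e-06) for lung minus intestine. Epithelial genes moved in the same directions. Of 15 genes of epithelium, 12 were higher and 2 lower in intestine than in bladder (28.7% and 23.3% of all tested genes). In lung, 14 were lower and 1 higher than in bladder (21.8% and 19.2%). The summed value of the 15 genes was 7136, 6569 and 9935 in bladder, 20218, 20510 and 21684 in intestine, and 949 and 1496 in lung. Within bladder the libraries ranked alike by Erbb3 and by this sum. Within intestine the library highest in Erbb3, number 2, was the middle one by the sum. Krt5, a keratin of basal cells, was at 0 in all intestine and lung libraries, whereas Epcam, which marks most epithelia, was at 2423 to 2658 in intestine and 32 to 56 in lung. The part of epithelial RNA in the Erbb3 difference was not tested.

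Gfap (ENSMUSG00000020932, chromosome 11, 102778162 to 102791738, minus strand) was at 10, 19 and 11 in bladder, 120, 124 and 125 in intestine, and 5 and 4 in lung. No tissues overlapped. Intestine was 9.22-fold higher than bladder, a log2 difference of 3.17 (SE 0.35, limma adjusted p = 6.64e-05). Lung was lower than intestine by 4.50 on the log2 scale (log2 difference -4.50, SE 0.40, adjusted p = 2.25e-05). The smaller difference between lung and bladder, -1.34 (SE 0.40, limma adjusted p = 0.0237), rested on 11 reads against 33. That call was lost under 6 alternatives, where adjusted p reached 0.0521 to 0.0903, among them leaving out bladder library 2 or lung library 2.

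Cdh19 (ENSMUSG00000047216, chromosome 1, 110816056 to 110905314, minus strand) was at 6, 4 and 13 in bladder, 112, 108 and 138 in intestine, and 0 and 1 in lung. Intestine lay above bladder and bladder above lung without overlap. The log2 difference for intestine minus bladder was 3.92 (SE 0.49, limma adjusted p = 0.00013), with mean values of 7.67 ± 4.73 and 119 ± 16.3 (n = 3 each). Lung held 1 read, against 390 in intestine and 20 in bladder. The corresponding ratios of reads were 282 (exact 95% interval 50.3 to 11160) and 19.0 (3.04 to 787). Both lung differences passed the test, at -6.40 (SE 0.55, limma adjusted p = 1.84e-05) against intestine and -2.48 (SE 0.55, adjusted p = 0.00559) against bladder. Cdh19 needed the intestine libraries to pass the filter on low values.

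S100b (ENSMUSG00000033208, chromosome 10, 76089687 to 76096993, plus strand) was at 18, 16 and 16 in bladder, 109, 141 and 121 in intestine, and 164 and 228 in lung. Bladder was low in all libraries, and both lung libraries were above every intestine library. Lung was 11.8-fold higher than bladder (196 ± 45.3, n = 2, against 16.7 ± 1.15, n = 3), with a log2 difference of 3.46 (SE 0.29, limma adjusted p = 1.80e-05). Intestine minus bladder was 2.81 (SE 0.26, adjusted p = 1.82e-05). Lung minus intestine was 0.65 (SE 0.29) and did not pass the test (limma adjusted p = 0.101). It passed with quantile normalization (1.24, adjusted p = 0.00673) and without the intensity trend (adjusted p = 0.0334). The S100b span shares 1731 nt with the oppositely oriented Dip2a, and the library kit does not mark strand, so reads in the shared stretch cannot be assigned. Dip2a was at 474 to 614 in bladder, 465 to 752 in intestine and 730 to 745 in lung, and passed the test in no pair (limma adjusted p = 0.939, 0.126 and 0.142).

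**Figure D2:**
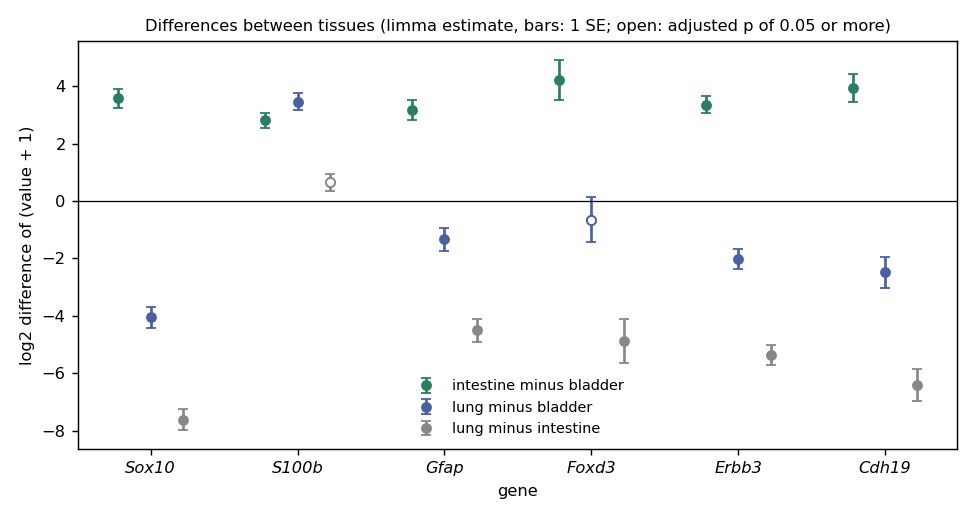
Log2 differences of value plus 1 for each gene in the 3 comparisons of tissues, with bars of 1 SE from limma and open symbols where the adjusted p was 0.05 or more. Intestine minus bladder is above 0 for all 6 genes, and lung minus bladder is above 0 for S100b and below 0 for the other 5, of which Foxd3 is open.

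Because S100b went against the other members in lung, it was set against them within each library, a ratio that does not depend on library scaling beyond the added 1. The summed value of Sox10, Gfap, Foxd3 and Cdh19 was 34, 40 and 43 in bladder, 459, 491 and 515 in intestine, and 5 and 7 in lung. The log2 ratio of S100b + 1 to this sum + 1 was -1.17 ± 0.26 (SD, n = 3) in bladder, -1.98 ± 0.16 (n = 3) in intestine and 4.81 ± 0.04 (n = 2) in lung. Lung was separated from intestine by 6.79 and from bladder by 5.99 without overlap. The ratio and its genes were chosen after the lung values had been seen, so it is a description with no test. The highest S100b values thus stood beside the lowest values of the 4 other genes. Among genes of fat cells, which also make S100B, 4 were tested, and 1 was higher and 0 lower in lung than in bladder (0 higher with quantile normalization). In intestine 3 of these 4 were higher than in bladder and 0 lower (median log2 difference 3.36). Of all tested genes, 19.2% were higher in lung and 28.7% higher in intestine than in bladder. Pck1 was at 0, 1 and 7 in bladder, 220, 187 and 299 in intestine, and 1 and 1 in lung. Lipe, the 1 called in lung, was at 240, 214 and 264 in bladder and 324 and 370 in lung. Their list summed to 510 to 672 in bladder, 1168 to 1375 in intestine and 649 to 660 in lung. Adipoq, the defining adipokine, was at 0 in all intestine and lung libraries and at 0 to 15 in bladder, and the lipid droplet gene Plin1 was at 2 and 4 in lung and 0 to 8 in intestine. Adipoq and Plin1 were below the filter and not tested. The part of fat cell RNA in the S100b difference was not tested. Fabp7, a fatty acid binding protein of immature glia, was at 9, 0 and 2 in bladder, 42, 45 and 51 in intestine, and 72 and 69 in lung, with a log2 difference of 4.52 (SE 0.80, limma adjusted p = 0.00168) between lung and bladder.

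**Figure D3:**
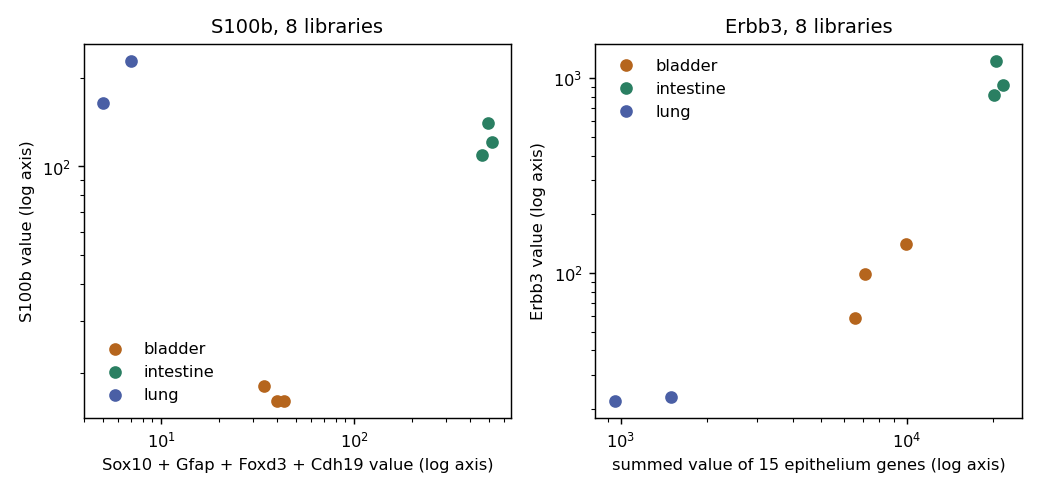
Left, S100b value against the summed value of Sox10, Gfap, Foxd3 and Cdh19 in each of 8 libraries, and right, Erbb3 value against the summed value of 15 epithelium genes (all axes log). The lung libraries combine S100b of 164 and 228 with sums of 5 and 7, and Erbb3 is lowest in the lung libraries, where the epithelial sum is lowest.

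Levels of different genes were compared per kb of exon. In intestine the order was Erbb3 at 164 ± 35.0, S100b at 83.3 ± 10.9, Sox10 at 64.0 ± 1.65, Gfap at 29.2 ± 0.627, Cdh19 at 27.9 ± 3.81 and Foxd3 at 21.8 ± 5.13 (normalized value per kb, SD, n = 3). Gfap and Cdh19 differed by less than the spread of Cdh19, and the libraries of Cdh19 and Foxd3 overlapped. In bladder Erbb3 (16.6 ± 6.82) and S100b (11.2 ± 0.778) led, within the spread of Erbb3, followed by Sox10 at 5.13 ± 0.825, Gfap at 3.16 ± 1.17, Cdh19 at 1.79 ± 1.10 and Foxd3 at 1.00 ± 0.896. Cdh19 and Foxd3 differed by less than the spread of either. In lung S100b was first at 132 ± 30.5 (n = 2), and the next gene, Erbb3, was at 3.74 ± 0.118, above Gfap at 1.07 ± 0.168, Foxd3 at 0.43 ± 0.609 and Cdh19 at 0.117 ± 0.165. The highest read density of any member was 0.234 reads per nt, for Erbb3 in intestine.

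**Figure D4:**
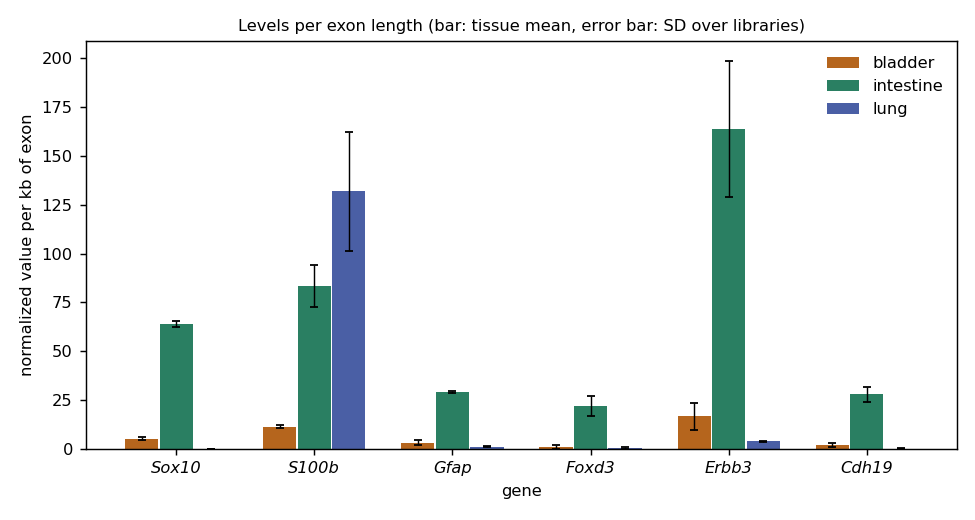
Normalized value per kb of exon for each gene, as bars of the tissue mean with error bars of 1 SD over 3 bladder, 3 intestine and 2 lung libraries. Erbb3 leads in bladder and intestine and S100b leads in lung, at 132.

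Replicate spread in intestine is given beside that from counting reads, with no test of a difference between genes. The coefficient of variation over the 3 libraries was 2.58% for Sox10 and 2.15% for Gfap, where counting reads alone would give 6.84% and 8.63%. S100b varied by 13.1% against 8.59% from counting, Cdh19 by 13.65% against 8.78% and Foxd3 by 23.55% against 13.4%. Erbb3 varied by 21.3% against 3.04%, the widest gap of the 6.

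Other genes of enteric glia were mostly higher in intestine. Of 15 tested, 12 were higher and 2 lower than in bladder (median log2 difference 2.57, against 0.06 over all tested genes). In lung, 5 were higher and 5 lower than in bladder (median -0.36 against 0 over all tested, turning to 0.14 with the deposited scaling undone). Against intestine, 0 were higher and 10 lower in lung (-1.59 against -0.04). Of all tested genes, the shares higher and lower, in the same order, were 28.7% and 23.3%, 19.2% and 21.8%, and 15.9% and 23.6%. Gpr37l1, a glial receptor, was at 3, 6 and 2 in bladder, 268, 270 and 334 in intestine, and 3 and 16 in lung. Ngfr, the low-affinity neurotrophin receptor of crest-derived glia, was at 48, 39 and 49 in bladder, 206, 215 and 248 in intestine, and 3 and 3 in lung. These libraries were separated by tissue for Ngfr, whereas bladder and lung overlapped for Gpr37l1. The log2 difference between intestine and bladder was 6.05 (SE 0.56, limma adjusted p = 2.02e-05) for Gpr37l1, which would not have passed the filter on low values without the intestine libraries. It was 2.28 (SE 0.27, adjusted p = 9.94e-05) for Ngfr, which was also lower in lung than in bladder (-3.53, adjusted p = 2.37e-05). The potassium channel gene Kcna1 was higher in intestine as well (3.36, limma adjusted p = 0.0287). The 2 genes that were lower, Entpd2 and Scn7a, had the highest values of the list in bladder. Entpd2, an ectonucleotidase, was at 2516 to 2866 in bladder and 1447 to 1621 in intestine. Scn7a, a sodium-sensing channel named here after its values were seen, was at 2141 to 2288 and 789 to 1404.

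Of 19 tested genes of Schwann cells and myelin, 10 were higher and 5 lower in intestine than in bladder (median 1.28). In lung, 4 were higher and 7 lower than in bladder (-0.39), and 0 higher and 13 lower than in intestine (-1.94). Over all tested genes the shares, in the same order, were 28.7% and 23.3%, 19.2% and 21.8%, and 15.9% and 23.6%. The median for lung against bladder turned to 0.09 with the deposited scaling undone. Gjb1, a connexin of Schwann cells that liver and gut epithelium also make, was at 1, 3 and 1 in bladder, 656, 580 and 742 in intestine, and 3 and 3 in lung. Ugt8a, which makes the lipid galactosylceramide, was at 0 in all bladder libraries and at 49, 43 and 83 in intestine. In the opposite direction, Fa2h, a fatty acid hydroxylase of myelin lipids, was at 91, 138 and 181 in bladder, 1, 12 and 32 in intestine, and 0 and 0 in lung. Gldn, a protein of the node of Ranvier, was at 5, 0 and 5 in bladder, 43, 52 and 16 in intestine, and 141 and 57 in lung. Pmp22, the most abundant member, was lower in intestine and lung than in bladder (log2 differences -0.66 and -0.65). With the deposited scaling undone, the median difference of all tested genes from bladder was 0.45 in intestine (0.06 as deposited) and 0.48 in lung (0 as deposited).

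Around the receptor Erbb3, 8 of 14 tested neuregulin, EGF-family and ERBB genes were higher and 2 lower in intestine than in bladder (median 1.25). In lung, 2 were higher and 5 lower than in bladder (median -0.10), which became 4 higher and 2 lower (0.24) with the deposited scaling undone. As deposited, 28.7% of all tested genes were higher and 23.3% lower in intestine than in bladder. For lung against bladder the shares were 19.2% and 21.8%, and the counts are a description. Among ligands, Nrg4 was at 9, 9 and 11 in bladder, 98, 134 and 105 in intestine, and 3 and 5 in lung (3.40 for intestine minus bladder, limma adjusted p = 3.88e-05), and it too needed the intestine libraries to pass the filter. Nrg1, the neuregulin best known to act on Schwann cells, was at 62, 43 and 126 in bladder, 162, 219 and 265 in intestine, and 64 and 212 in lung. Its intestine libraries lay above bladder (1.59, limma adjusted p = 0.0231), and the lung libraries spanned both. Btc was at 23, 33 and 26 in bladder, 312, 400 and 326 in intestine, and 561 and 215 in lung, and Areg at 41, 51 and 90, 305, 387 and 406, and 12 and 31. Among receptors, Erbb2, the partner of ERBB3 in signalling, was at 1333 to 1410 in bladder, 1559 to 1618 in intestine and 955 to 1482 in lung, and passed the test in no pair (limma adjusted p = 0.236, 0.329 and 0.0606). Erbb4 was at 0 in bladder, 0 to 1 in intestine, and 54 and 13 in lung. Errfi1, an inhibitor of these receptors and the most abundant gene of the list, was at 4608 to 5235 in bladder and intestine and lower in lung, at 2583 and 3317.

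Genes of neurons and endothelium moved with the glial genes in intestine. Of 21 tested enteric neuron genes, 19 were higher and 0 lower in intestine than in bladder, against 28.7% and 23.3% of all tested genes. Vip, Snap25 and Chrna3 passed the filter on low values through the intestine libraries only, so this count is a description. The median of the list was 4.26, or 3.62 with genes absent from a tissue set at the floor of 3 reads. Against intestine, 18 were lower and 0 higher in lung (23.6% and 15.9% of all tested genes). Their summed value was 1263 to 1483 in bladder, 7673 to 8336 in intestine and 1044 to 1673 in lung. Vip, a neuropeptide, was at 1436, 1604 and 1744 in intestine, and Snap25, a synaptic fusion protein, at 563, 611 and 609, both at 0 in all bladder libraries. Chat, which makes acetylcholine, and the nicotinic receptor gene Chrna3 were at 0 in all bladder and lung libraries. Of 10 endothelial genes, 9 were higher and 1 lower in intestine than in bladder (28.7% and 23.3% of all tested genes). In lung, 6 were higher and 2 lower than in bladder (19.2% and 21.8%). The same shares are the background of the fibroblast and smooth muscle counts below. Summed values of the endothelial genes were 5254 to 6979 in bladder, 14064 to 16273 in intestine and 7993 to 8732 in lung. The endothelial sum was thus higher in lung than in bladder, where Sox10, Erbb3, Gfap and Cdh19 were lower. Of 10 fibroblast genes, 10 were lower in intestine than in bladder and 10 lower in lung than in bladder (7 and 8 with the scaling undone, 4 and 9 with quantile normalization), with summed values of 80082 to 90489, 53928 to 57609 and 41074 to 44295. The fibroblast list thus went the opposite way to the glial genes in intestine and the same way as those 4 in lung. Of 11 smooth muscle genes, 7 were higher and 2 lower in intestine than in bladder (11 and 0 with the scaling undone), and 7 were higher and 0 lower in lung. The part of these cell types in the glial differences was not tested.

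**Figure D5:**
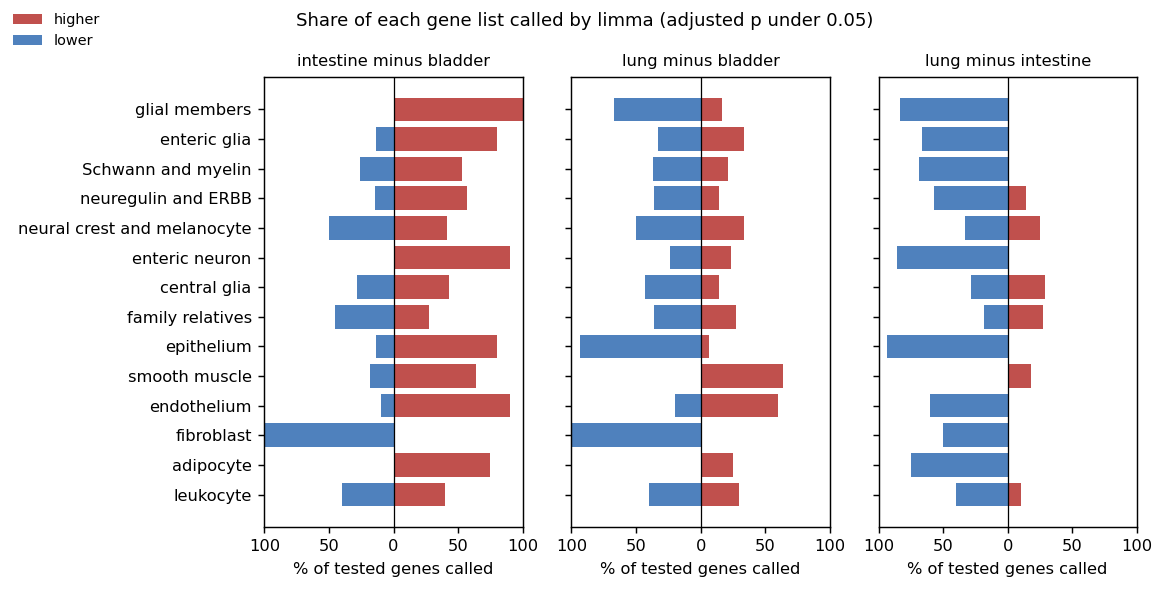
Percent of tested genes of each list that limma called higher (red, to the right) or lower (blue, to the left) in the 3 comparisons, at an adjusted p under 0.05. Glial, neuron, epithelium and endothelium lists lie mostly to the right for intestine minus bladder and mostly to the left for lung minus intestine.

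The genes whose pattern was most like the mean of the 6 members over the 8 libraries were Nrg4, Lsr, Epcam, Tspan15, Fermt1, Ceacam1, Mt3 and Adgrg7, with Pearson correlations of 0.996 to 0.998 on the log2 scale. The 8 libraries come from only 3 tissues, and 714 of 15782 other named genes (4.5%) had a correlation above 0.95, so the likeness is a description only. The members themselves correlated with their mean at 0.942 to 0.984, except S100b at 0.244. Each member is part of that mean, which raises these values. Epcam, Lsr, a tight junction protein, and Ceacam1 are known from epithelium, and Mt3, a metallothionein best known from brain, was at 5, 8 and 9 in bladder, 149, 119 and 147 in intestine, and 2 and 3 in lung.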

How the data were processed

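RNA of sorted cells from bladder (3 libraries), intestine (3) and lung (2) was purified and at most 10 ng entered a SMART-Seq v4 library, per the labels' protocols. The deposited table was treated as a score. From the values themselves, its whole numbers are spaced like reads that were scaled by 1 factor in each library and then rounded. Tools listed in the submitters' processing notes, without roles, are DESeq2 1.36.0, featureCounts 2.0.4, Picard 3.0.0, STAR 2.7.10a and Trimmomatic 0.39, with build mm39. For annotation release, strand setting and filters nothing is given in the sources used here.

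The value of 1 read was estimated from the spacing, and dividing by it gave reconstructed reads, at most 1 read from the truth at values up to 100 in simulated libraries. Floors and intervals describe counting error alone, because PCR copies carry no molecular identifiers. limma 3.58.1 (R 4.3.3) with an intensity trend was fitted to log2(value + 1) for 18097 genes that reached 10 in 2 or more libraries, and was tested on simulated data. Fold changes on that scale understate changes of low genes. Exon lengths came from GENCODE M21 (96.8% of gene IDs), none of whose coordinates were used.

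The members and lists were chosen with earlier results of these data known. Named genes were all 6 members. From each list came up to 5 genes with the largest called difference from bladder and a tissue mean of at least 50, plus the most abundant, plus markers at 0. A few others under the rule are not reported here. Scn7a, Plin1, Nrg1, Erbb2 and Erbb4 were named for their role after their values were seen. Alternatives were other pseudocounts, filters and scalings, no intensity trend, a replicate block, fits of 2 tissues only and leaving out each library. Undoing the deposited scaling returned reconstructed reads with no correction for depth. Bladder libraries held 9.72 to 10.96 M reads, against 12.02 to 13.62 M in intestine and lung, so depth enters those differences. Quantile normalization moved the median log2 difference of all tested genes to -0.15 (intestine minus bladder) and 0.18 (lung minus intestine), and equal totals to 0.15 (intestine minus bladder) and 0.12 (lung minus bladder).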

Additional observations from a re-analysis of the deposited data

How the results depend on the processing

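Of the members' log2 differences recomputed under the alternatives, 315 kept direction and side of the threshold, 6 lost the call, 2 gained it and 1 reversed. The 315 do not measure robustness, because several alternatives cannot change the difference itself, only its SE and p-value. These are the other filters, the fit without the intensity trend, the fits of 2 tissues, and leaving out a library of the tissue not compared. The reversal was Foxd3 for lung minus bladder, not called in either case, which ran from -1.44 to 0.14 over the fits that left out 1 library, the latter without lung library 1. All 6 losses were Gfap for lung minus bladder, and both gains were S100b for lung minus intestine, which made 1 member higher in lung with quantile normalization and 1 without the intensity trend, against 0. The cause was not tested. The 6 members higher in intestine than in bladder, and the 5 lower in lung than in intestine, were called under every alternative run. Foxd3 and Cdh19 are among them and needed the intestine libraries to pass the filter on low values, so these counts are a description. With the replicate block, Gfap for lung minus bladder was at -1.38 (limma adjusted p = 0.0545), and no other member's call changed. Libraries of equal number did not deviate together (correlations of -0.026 to 0.058), so the numbers were not treated as pairs. Over all genes, undoing the deposited scaling gave 8322 higher and 1928 lower for intestine minus bladder (5185 and 4210 as deposited) and 7952 and 1907 for lung minus bladder (3466 and 3952). Those fits leave depth uncorrected, and the bladder libraries were the shallowest. Quantile normalization gave 5172 higher for lung minus intestine (2882 as deposited). As a share of calls, the higher ones were 55.2%, 46.7% and 40.3% for intestine minus bladder, lung minus bladder and lung minus intestine as deposited. In the same order, undoing the scaling gave 81.2%, 80.7% and 51%. Quantile normalization gave 41.7%, 50.3% and 59.5%, and setting totals equal gave 61.8%, 58.5% and 45.9%. Depth limits Foxd3 and Cdh19 in bladder and lung, where 1 to 20 reads were summed per tissue, and 2 lung libraries limit every lung comparison.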

Other observations

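Of 22 tested relatives of the members, 6 were higher and 10 lower in intestine than in bladder, or 8 and 3 with the deposited scaling undone. Over all tested genes 28.7% were higher and 23.3% lower as deposited, and the count of relatives is a description. Sox9, which belongs with Sox10 to the SOXE group and is also made by gut epithelium, was at 335, 385 and 459 in bladder, 2968, 2624 and 2738 in intestine, and 534 and 907 in lung. Sox8, the third of that group, went the other way, at 146, 181 and 203 in bladder, 29, 13 and 54 in intestine, and 94 and 120 in lung (log2 difference for intestine minus bladder -2.63, limma adjusted p = 0.00091). Prph, an intermediate filament of peripheral neurons, followed Gfap with 94 to 139, 774 to 864 and 23 to 24. Nes, a filament of progenitors and of vessel cells, was at 71 to 157, 1107 to 1222 and 2579 to 2677, so that lung was highest. Its log2 difference for lung minus intestine was called (1.18, limma adjusted p = 0.0069). S100b was also highest in lung, but its difference from intestine was not called as deposited. S100a4, named here after its values were seen, was the one listed S100A gene higher in lung than in bladder (1.82, limma adjusted p = 0.00256), at 101 and 141 against 26 to 39.

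Of 7 tested genes known from central glia, 3 were higher and 2 lower in intestine than in bladder, or 3 and 4 with quantile normalization. The shares of all tested genes as deposited were 28.7% higher and 23.3% lower. Mobp, of central myelin, was at 140, 150 and 123 in bladder, 0 in all intestine libraries, and 2 and 1 in lung, and Gjb6, a connexin of astrocytes and of stratified epithelium, was at 103, 125 and 204, 0, 2 and 1, and 0 and 3. Aldh1l1, a folate enzyme of astrocytes and liver, was higher in intestine, at 270, 322 and 322 against 106 to 176 in bladder. Among neural crest genes, Edn3, the endothelin that guides crest cells into the gut, was at 2347 to 2508 in bladder, 233 to 281 in intestine, and 155 and 261 in lung. Its receptor gene Ednrb was opposite, at 456 to 671, 1841 to 2256, and 2041 and 3842. Of the 12 tested genes of neural crest and melanocytes, 5 were higher and 6 lower in intestine than in bladder, or 5 and 5 with the scaling undone. The same 28.7% and 23.3% of all tested genes are the background, and both counts are a description.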
